A study of Arabidopsis thaliana with 32 samples.

Results

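The late response of callus to activated LEAFY was read from the 4 arrays labelled 22 h, of the 32 arrays in the series. The arrays were chosen by their label alone, and all 10816 features of the array were considered. Each array carried RNA of 35S:LFY-GR callus of Arabidopsis thaliana kept for 22 h in a solution with dexamethasone, against RNA of 35S:LFY-GR callus kept for 22 h in a control solution. Both sides thus carried the transgene, and callus without it was not analysed here, so an effect of the steroid itself and an effect of LFY-GR cannot be told apart. The 35S promoter drives the fusion in most tissues, not only in the flower primordia where LEAFY acts in the plant. Per the labels, root explants were the source of the callus, and flower transcripts were enriched among the cDNAs spotted on the array. In such bulk RNA, fewer cells of a type and less RNA per cell cannot be told apart. Whether the 4 arrays held 4 pairs of RNA samples or dye swaps of 2 pairs is not in the labels, so the p-values measure a spread between arrays that may be technical. The other time points, with 4 arrays each, were 0, 2, 4, 6, 8, 10 and 12 h.

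LEAFY is a plant-specific transcription factor that turns a shoot meristem into a floral meristem. It binds DNA and switches on floral identity genes, among them genes of the MADS-box family that specify the organs of the flower. When it is fused with the steroid-binding domain of the glucocorticoid receptor (GR), the protein is held in the cytoplasm until dexamethasone binds, after which it can enter the nucleus. Late after induction the products of direct targets can have acted in turn, and the arrays do not separate direct from indirect responses.

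The deposited value of a feature was a log10 ratio of the 2 channels of an array, converted here to log2. Dexamethasone RNA was in channel 2 on arrays 1 and 3 and in channel 1 on arrays 2 and 4, so the signs of arrays 2 and 4 were turned. As deposited, the 4 pairs of arrays of opposite orientation at 22 h correlated across features at -0.39 to -0.18, and the 2 pairs of the same orientation at 0.25 and 0.32, as turning requires. A positive ratio means more RNA in dexamethasone-treated callus than in control callus where channel 2 is the numerator of the deposited ratio. That is likely by convention, but no source used here states it. If the ratio ran the other way, every sign exchanges and every count and size stays. Features are identified by their plate position. None matched the gene table of TAIR10.1, so no gene can be named, the tissue could not be checked against marker genes, and LFY itself could not be read.

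The 22 h arrays had values for 10705 to 10804 features. Array 1 had 160 values at the limits of the scale, a ratio of 100 either way, and arrays 2, 3 and 4 had 22, 82 and 57. These 321 values (0.748%) were left out. The largest ratio inside the limits was 1.93 on the log10 scale, on array 1, and the excluded values were all exactly 2 or -2. The spread of all ratios, as a median absolute deviation, was 0.31 to 0.37 (log2) on the 22 h arrays and 0.16 to 0.37 on the 0 h arrays. Of the 10816 features, 10728 had at least 1 value in each orientation at 22 h and were tested, and 10459 had all 4 values.

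At 22 h the response was broad and lopsided. limma called 631 features, 5.88% of those tested, with a ratio different from 0 (Benjamini-Hochberg adjusted p under 0.05). Of these, 456 were positive (4.25%) and 175 were negative (1.63%). An unadjusted p under 0.05 was reached by 1743 features (16.2%). On the 0 h arrays, the start of the course, limma called 0 features, and 296 (2.75%) reached that unadjusted p. The fit shares a spread per feature over the series, while the median SD over the 4 arrays was 0.23 at 0 h and 0.29 at 22 h. Over all tested features the median ratio at 22 h was -0.02. The deposited ratios were already centred near 0 on every array, so a shift of the whole array could not be read.

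The positive side held the large changes. Of the 456 positive features, 140 (1.3% of those tested) lay beyond 2-fold and 52 (0.485%) beyond 4-fold. Of the 175 negative features, 16 (0.149%) lay beyond 2-fold and 0 beyond 4-fold. The median ratio was 0.78 on the log2 scale, a fold of 1.72, for the positive features and -0.53, a fold of 1.45, for the negative ones. A further 49 positive and 14 negative features lay beyond 2-fold without being called. The median standard error of these uncalled features was 0.65, against 0.20 for the called features beyond 2-fold.

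**Figure D1:**
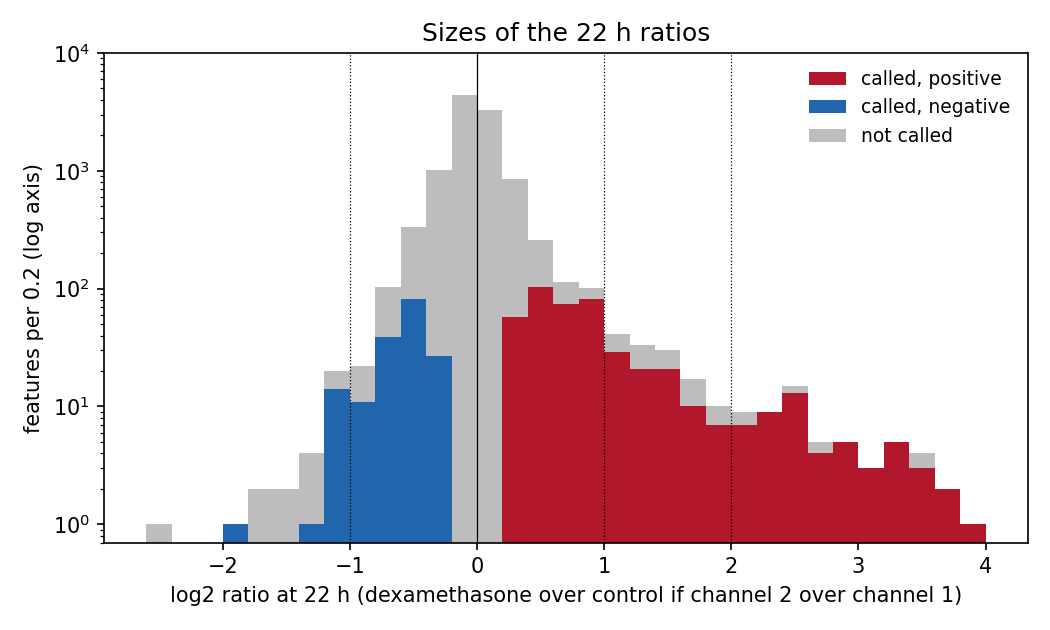
Features per 0.2 of log2 ratio at 22 h on a log axis, stacked by limma call, with dotted lines at 2-fold on both sides and at 4-fold on the positive side. The called features beyond 4-fold number 52 positive and 0 negative.

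The 4 arrays gave the positive side nearly alike. The median of the 456 positive features was 0.85, 0.75, 0.85 and 0.63 on arrays 1 to 4. Of the 453 positive features with 4 values, 430 (94.9%) were positive on every array. Among the tested features that were not called, 1026 of 9832 (10.4%) had 1 sign on all 4 arrays. Called features of either side were chosen on these same arrays, which favours 1 sign. The counts of signs therefore describe the sets and do not test them. All 51 of the features beyond 4-fold that had 4 values were positive on every array, and on each of them by more than 0.5. Their per-array medians were 2.45, 2.40, 3.16 and 2.78, so arrays 3 and 4 stood higher than arrays 1 and 2 for the strongest features but not for the positive set as a whole.

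The negative side was carried more by arrays 1 and 2. The median of the 175 negative features was -0.81 and -0.71 on arrays 1 and 2, against -0.40 and -0.28 on arrays 3 and 4. Of the 174 negative features with 4 values, 139 (79.9%) were negative on every array, and 22 of the 175 were positive on array 4. The count followed the same arrays: it was 65 without array 1 and 80 without array 2, and 222 without array 3 and 270 without array 4. The positive count was 383, 384, 427 and 407 without arrays 1, 2, 3 and 4. The cause of the split between the pairs of arrays was not tested.

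**Figure D2:**
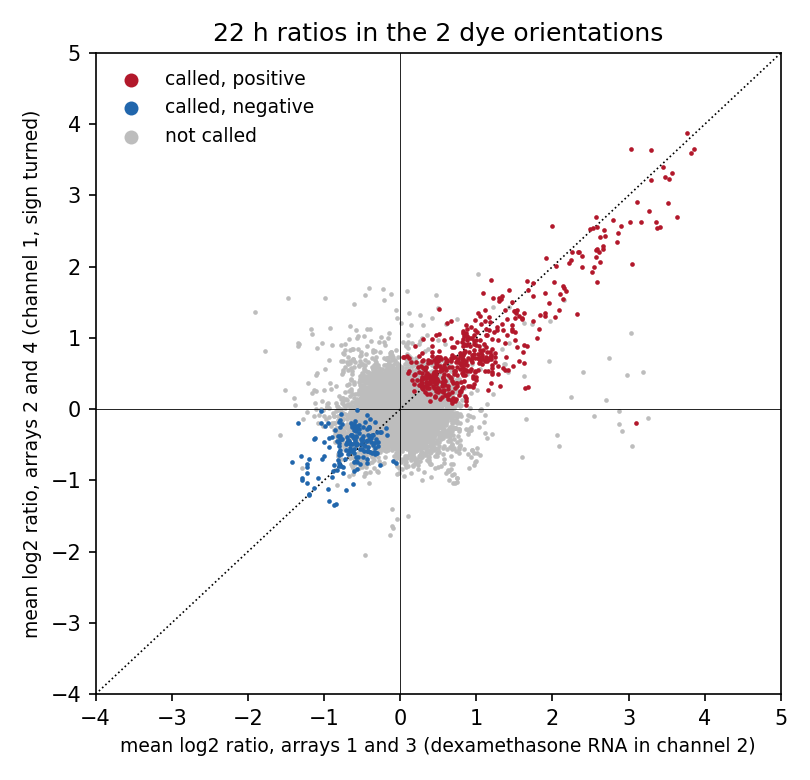
Each point is a feature with 4 values at 22 h. The x axis is the mean log2 ratio of arrays 1 and 3 and the y axis the mean of arrays 2 and 4 with the sign turned. Most called positive features lie along the dotted line of equal values, and the called negative features all lie within 2 units of 0 on both axes.

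By the rule for names, the 2 largest ratios of either sign with 4 values of 1 sign were singled out. This choice was made on the 22 h values, which favours large ratios, small p-values and no overlap with 0 h. The 95% intervals do not allow for it. Of all features with values on every array of both times, the 22 h arrays lay wholly above those of 0 h in 3.77% and wholly below in 1.5%. Feature GP005B2 had ratios of 3.52, 4.26, 4.00 and 3.50 on arrays 1 to 4, a mean of 3.82 ± 0.37 (SD, n = 4), against -0.41, 0.10, -0.34 and 0.56 on the 0 h arrays. The 22 h and 0 h arrays did not overlap. Its fitted ratio was 3.82 (95% interval 3.33 to 4.31, limma adjusted p = 2.62e-12), which is a 14.1-fold difference between treated and control callus. It passed the test of 22 h minus 0 h as well, with 3.84 (SE 0.34, limma adjusted p = 6.18e-09).

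Earlier in the course GP005B2 was lower. Its mean was 0.46 ± 0.99 at 2 h and 0.74 ± 0.76 at 4 h (SD, n = 4 each), where it was not called (limma adjusted p = 0.617 and 0.136). From 6 h on it was called at every time point, with means of 2.09 ± 0.43 at 6 h, 2.48 ± 0.44 at 10 h and 2.97 ± 0.61 for 12 h. The 8 h value of array 2 was at the limit and left out, and the other 3 arrays gave 1.54 ± 1.13. The 22 h ratio exceeded the mean of 2 to 12 h by 2.08 (SE 0.26, limma adjusted p = 4.29e-06), while the step of 0.85 above 12 h (SE 0.33) was not called.

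The other positive feature, GP009E11, had 3.93, 3.88, 3.80 and 3.43 at 22 h, a mean of 3.76 ± 0.23 (SD, n = 4). Its 0 h arrays gave 0.03 ± 0.37, with no overlap. The 22 h arrays were the tightest of the 4 named features, but its fitted ratio of 3.76 had a standard error of 0.49, because the fit pools the spread over the series and array 1 at 4 h gave 5.87 where the other 3 arrays gave 0.21 to 0.92. Its interval was 2.76 to 4.76 (limma adjusted p = 3.45e-06). Before, it was called with means of 1.77 ± 0.40 at 6 h, 2.40 ± 0.53 at 10 h and 2.76 ± 0.41 for 12 h, but not at 2 or 8 h. It was also called at 4 h (limma adjusted p = 0.034), where array 1 stood apart. At 22 h minus 0 h it was called (3.73, limma adjusted p = 0.00119), and at 22 h minus the mean of 2 to 12 h it missed the threshold (1.96, limma adjusted p = 0.0512).

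On the negative side GP007A9 had -1.46, -2.02, -0.94 and -0.38 at 22 h, a mean of -1.20 ± 0.70 (SD, n = 4), against 0.21, -0.05, -0.15 and 0.14 at 0 h. All 22 h values lay below all 0 h values, and array 4 was the nearest to 0. The fitted ratio was -1.20 (95% interval -1.66 to -0.74, limma adjusted p = 0.000493), a 2.30-fold difference. It was called negative at every time point from 6 h on, at -0.87 to -0.83 from 6 to 12 h. Its difference of 22 h minus 12 h was -0.35 (SE 0.31) and was not called.

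GP107D11 had -1.54, -1.82, -0.85 and -0.57 at 22 h, a mean of -1.19 ± 0.58 (SD, n = 4), and 0.01 ± 0.13 at 0 h. It too was lower on arrays 1 and 2 than on arrays 3 and 4. The fitted ratio was -1.19 (95% interval -1.61 to -0.78, limma adjusted p = 0.000151). Unlike GP007A9 it was not called at 2, 4, 6 or 8 h, where its fitted ratios lay between -0.37 and -0.14, and it was called at 10 h (-0.79) and 12 h (-0.81). With the 4 arrays of 22 h fitted alone, neither negative feature passed. The limma adjusted p was then 0.188 for GP007A9, where all alternatives gave 4.23e-05 to 0.188, and 0.119 for GP107D11, where they gave 9.76e-06 to 0.119. Both positive features passed under every alternative run, with the sign turned by construction in one.

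**Figure D3:**
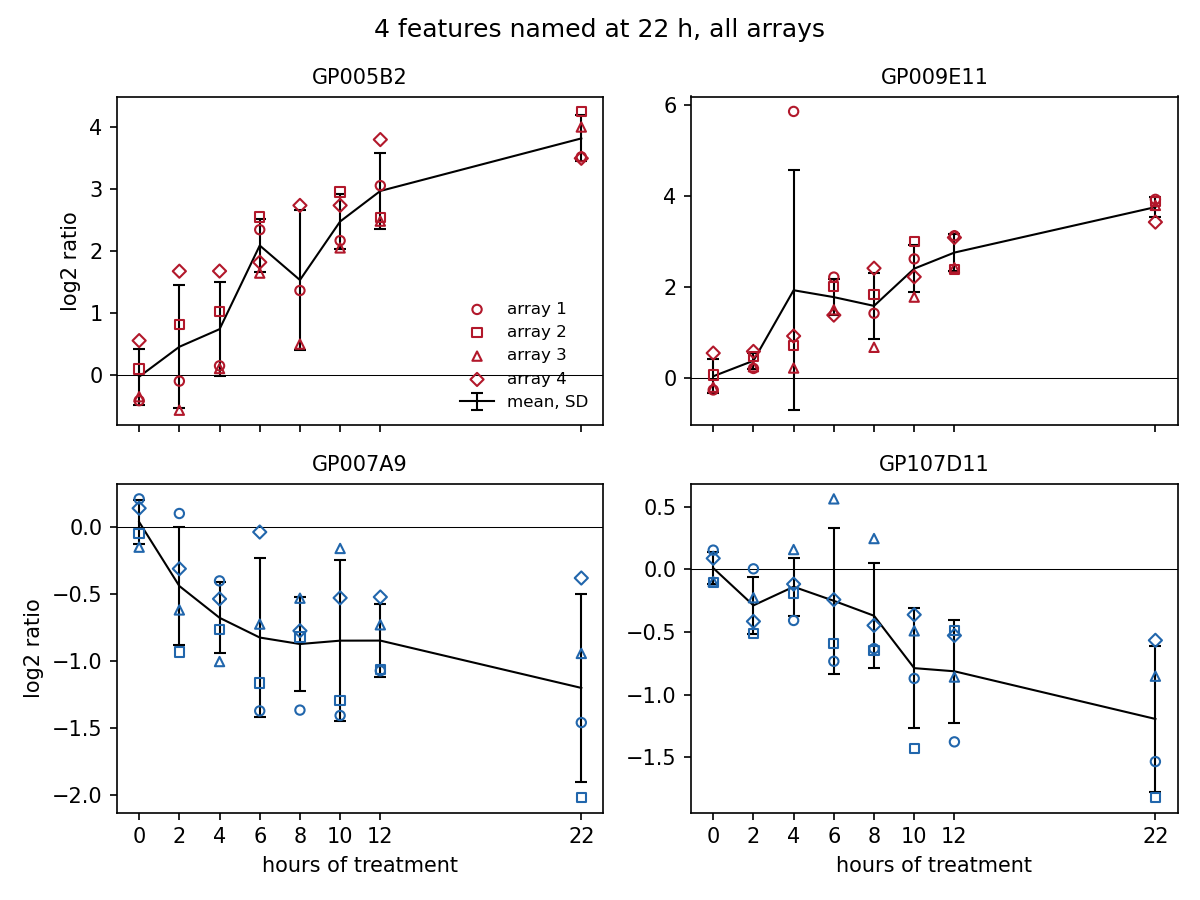
Log2 ratios of the 4 named features on every array against hours of treatment. Open symbols are single arrays, and the line joins the means with the SD as bars. GP005B2 and GP009E11 climb to 3.82 and 3.76 at 22 h, and the array 1 value of GP009E11 at 4 h stands at 5.87.

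Against the 0 h arrays as the background, 279 features (2.61%) differed, 245 with a positive difference (2.29%) and 34 with a negative one (0.318%). Of the 245, 244 were also called positive at 22 h against 0, and of the 34, 30 were also called negative. Both tests use the same 22 h arrays, which favours this overlap. The positive features had medians of 1.24, 0.99, 1.08 and 0.91 on the 22 h arrays and 0.02, 0.00, -0.06 and -0.02 on the 0 h arrays. In 222 of the 244 with a value on all 8 arrays, the 22 h arrays lay wholly above the 0 h arrays, which held for 3.77% of all features with those values. The negative features had medians of -0.79, -0.69, -0.44 and -0.37 at 22 h and of 0.16, 0.12, 0.08 and 0.13 at 0 h. The features were chosen by this difference, which favours high values at 0 h, and 0 features were called at 0 h by limma. In 25 of the 34 the 22 h arrays lay wholly below, against 1.5% of all features with those values. Both sets were chosen by this difference on these same arrays, which favours such a separation. The negative count was 7 without array 1 of 22 h, 15 without array 2, 60 without array 3 and 84 without array 4. It was 16 and 20 without arrays 1 and 4 of 0 h.

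Features chosen on the arrays of an earlier time point could be read on the 22 h arrays, which bore on the choice through the shared dye term and variance. Arrays with the same replicate number also tended to deviate together across time points, and the part of this in the values read was not tested. Of all features tested at 2, 4, 6, 8, 10 and 12 h, 0.149%, 0.95%, 2.11%, 2.31%, 2.26% and 2.34% had been called positive, and 0.159%, 0.727%, 1.04%, 0.823%, 0.923% and 0.522% negative. Those also tested at 22 h are counted here. All 16 features called positive at 2 h were called positive at 22 h, where 4.25% of all tested features were. Their median was 1.14, 0.89, 1.20 and 1.09 on the 4 arrays of 22 h, against a mean of medians of 0.72 ± 0.12 (SD, n = 4) on the 2 h arrays that chose them. Of the features called positive at 4, 6, 8, 10 and 12 h, 76 of 102, 158 of 226, 191 of 246, 204 of 242 and 224 of 251 were called positive at 22 h, and 0 were called negative. Their median at 22 h ran from 0.72 ± 0.03 for the features of 6 h to 0.96 ± 0.09 for those of 12 h, each above the median at the time of the call, which ran from 0.62 to 0.77. The arrays were not scaled to equal spread for these medians. The median absolute deviation of all ratios was 0.31 to 0.37 on the 22 h arrays and 0.21 to 0.37 on those of 2 to 12 h. Larger at 22 h than at the time of the call were 16 of the 16 features of 2 h, 59 of the 102 of 4 h, 125 of the 226 of 6 h, 162 of the 246 of 8 h, 168 of the 242 of 10 h and 183 of the 251 of 12 h.

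Of those called negative at 2, 4, 6 and 8 h, 5 of 16, 22 of 78, 27 of 112 and 26 of 88 were called negative at 22 h, where 1.63% of all tested features were. For 10 and 12 h it was 47 of 98 and 33 of 56. Their median ratio was nearer 0 at 22 h than at the time of the call in each of the 6 sets. For the 112 features of 6 h it was -0.22 ± 0.12 at 22 h, against -0.57 ± 0.07 at 6 h, and 14 of the 112 were further from 0 on the negative side at 22 h. The ratio at the time of the call is the one that chose the features and so is pushed away from 0, on the positive side too, where the medians at 22 h were larger all the same. Of the 112, 4 were called positive at 22 h, and 1 of the 88 of 8 h was, where 4.25% of all tested features were. The difference between the sides was not tested.

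**Figure D4:**
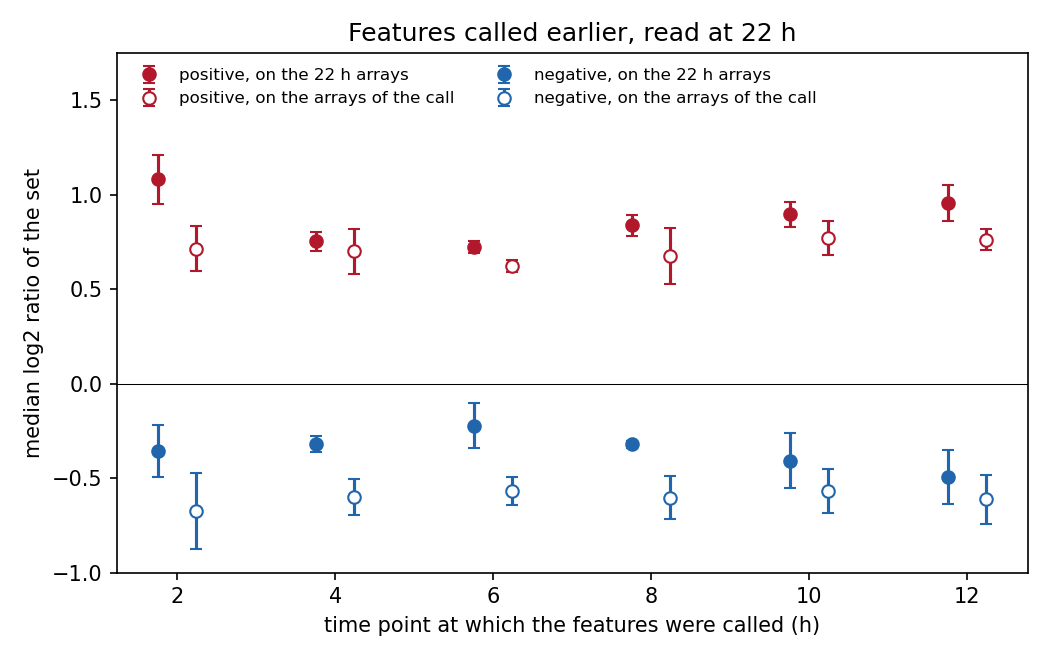
Median log2 ratio of the features called at each earlier time point, read on the 22 h arrays (filled) and on the arrays of the call (open), for positive and negative calls. Points are means of 4 per-array medians with their SD. Filled points lie above the open ones on the positive side and nearer 0 on the negative side.

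The features called at 22 h were also sorted by the time point at which they were first called on the same side. Of the 456 positive features, 185 (40.6%) were first called at 22 h. The other first calls numbered 16, 61, 94, 39, 36 and 25 at 2, 4, 6, 8, 10 and 12 h. All 52 features beyond 4-fold had been called positive before, 50 of them by 8 h. Of all features tested, 0.149% to 2.34% were called positive at single earlier time points. The share called at any of those time points was not counted. The median of the 52 at 0, 2, 6, 10, 12 and 22 h was -0.04 ± 0.04, 0.44 ± 0.15, 0.90 ± 0.14, 1.76 ± 0.17, 1.86 ± 0.39 and 2.70 ± 0.35 (SD over 4 arrays). The features were chosen at 22 h, so the last value is a description.

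Read over the course, the 456 positive features as a set had per-array medians that averaged 0.01 ± 0.03, 0.24 ± 0.07, 0.44 ± 0.10, 0.48 ± 0.07 and 0.77 ± 0.11 for 0, 4, 8, 12 and 22 h (SD, n = 4 arrays each). The 175 negative features had -0.01 ± 0.11, -0.22 ± 0.08, -0.20 ± 0.10, -0.35 ± 0.11 and -0.55 ± 0.25 at the same times. At 2 h the averages were 0.12 ± 0.08 for the positive and -0.18 ± 0.05 for the negative features. Both averages at 2 h thus lay on the side of the 22 h call. The sets were chosen at 22 h in a fit that shares the dye term and variance with the other arrays. At 2 h, 16 of the 456 were called positive and 5 of the 175 negative, against 0.149% and 0.159% of all features tested. At 12 h, 224 of the 456 (49.1%) were called positive and 33 of the 175 (18.9%) negative, against 2.34% and 0.522%.

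A first call at 22 h was not by itself a test of a late change. The 185 positive features of that kind had a median of 0.56 ± 0.10 at 22 h and of 0.21 ± 0.07 at 12 h, where it was already above 0. Of the 185, 2 passed the test of 22 h minus 12 h and 74 passed that of 22 h minus the mean of 2 to 12 h. The smallest difference called for 22 h minus 12 h was 0.76, so failing that test does not show that a feature stayed unchanged. None of the 185 lay beyond 4-fold, and 29 lay beyond 2-fold. Among the 175 negative features, 99 (56.6%) were first called at 22 h, with a median of -0.56 ± 0.32 at 22 h and -0.29 ± 0.12 at 12 h. Of these 99, 0 passed the test of 22 h minus 12 h by limma and 3 passed that of 22 h minus the mean of 2 to 12 h.

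Between 12 h and 22 h, 21 features (0.196%) differed by limma, all of them higher at 22 h, and 423 had an unadjusted p under 0.05. Of the 21, 16 lay beyond 4-fold at 22 h and 19 had been called positive before. Over all tested features, 0.485% were called positive beyond 4-fold at 22 h. At single earlier time points 0.149% to 2.34% were called positive. The 19 include a call at any of those time points, and that share was not counted over all features. No difference under 0.76 was called, which favours features with large ratios at 22 h. The medians of the 21 were 2.47, 2.67, 2.94 and 2.38 on the 22 h arrays and 1.45, 1.14, 1.40 and 1.82 on the 12 h arrays. In each of the 21 the 22 h arrays lay wholly above the 12 h arrays, as in 1.2% of all features with a value on those arrays. The 21 were chosen by this difference on these same arrays, which favours such a separation. The differences ran from 0.76 to 1.42, with a median of 1.11. This list was short and moved with some single arrays: it held 5 features without array 3 of 22 h, 8 without array 2 of 12 h and 11 without array 3 of 12 h. Without arrays 1, 2 and 4 of 22 h it held 18, 15 and 31, and without arrays 1 and 4 of 12 h 23 and 24. By limma it held 0 features with the arrays scaled to equal spread, 0 with only the 22 h and 12 h arrays in the fit, and 0 after the 11 arrays that held over 100 limit values were left out. At an unadjusted p under 0.05 these settings gave 346, 354 and 464 features. The list held 3 features with arrays averaged as dye swaps and 49 with the replicate number as a block.

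**Figure D5:**
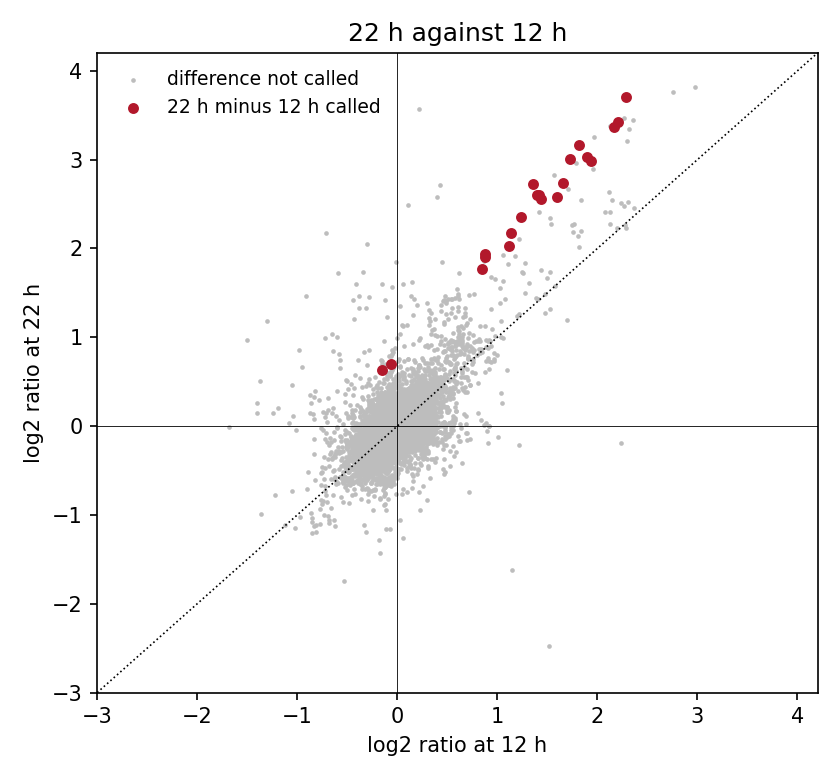
Fitted log2 ratio of each feature at 22 h against that at 12 h, with a dotted line of equal values. The 21 features called for 22 h minus 12 h are filled in red and all lie above the line, by 0.76 to 1.42.

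Set against the mean of the 24 arrays of 2 to 12 h, the 22 h ratios differed for 179 features (1.69%), 174 higher at 22 h (1.64%) and 5 lower (0.0472%). The 174 had a median ratio of 0.96 at 22 h and 0.24 over 2 to 12 h, and 156 of them were among the positive features of 22 h. In 173 of the 174 the ratio was also larger in size at 22 h. The features were chosen by this difference, which favours that outcome, the gap between the medians and the separation of arrays given next. It also favours the overlap with the features called at 22 h. Of the 171 with a value on every array, 40 had all 22 h arrays above all arrays of 2 to 12 h, which held for 0.406% of all features with those values. The 5 lower features had a median of -0.40 at 22 h and -0.02 before, and all 5 were called negative at 22 h. In 0 of the 5 did the 22 h arrays lie wholly below. The total was 98 without array 1 of 22 h and 110 without array 2. The lower side then held 2 and 0 features, and 46 without array 3 and 28 without array 4.

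The plate positions gave the features a place in the clone collection. The share called per plate ran from 0% to 15.6% over 114 plates, with a median of 6.25%. Plates 5, 1 and 3, singled out after their values were seen, had 15 of 96, 12 of 93 and 12 of 94 tested features called (15.6%, 12.9% and 12.8%), and the next highest share was 10.5%. Of the 52 positive features beyond 4-fold, 6 came from plate 1 and 4 from plate 5, and the other 42 from 32 other plates. The 10 from plates 1 and 5 had a median of 3.50, 3.59, 3.33 and 3.09 on the 22 h arrays, and the other 42 had 2.34, 2.11, 3.07 and 2.66. The higher values on arrays 3 and 4 were thus seen in the 42 and not in the 10. At 12 h the medians were 2.20 ± 0.51 for the 10 and 1.77 ± 0.45 for the 42, and at 6 h 0.96 ± 0.26 and 0.87 ± 0.18 (SD over 4 arrays). Plate rows had 5.23% to 7.15% of their tested features called and plate columns 4.87% to 7.35%. A transcript may be represented by several clones, and genes were therefore not counted.

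Some values fell on a few repeated ratios, and no intensities were used here to set beside them. On arrays 2, 3 and 4 of 22 h, 135, 170 and 138 values equalled, to within 1.5e-05 on the log10 scale, 1 offset per array plus the log10 of a ratio of whole numbers up to 5. On array 1 the best offset matched 19 values, fewer than the 40 set as the least for an array to count as holding such ratios. Features with such a value on 1 or more of the 22 h arrays were rarely called: 2 of 327 tested (0.612%), against 629 of the 10401 without one (6.05%). Such values were unevenly placed on the plates. In rows A and E, columns 1, 5 and 9, of the plates, 13.9% of features had such a ratio and 22.8% had a limit or missing value at 22 h, against 2.61% and 2.00% in the other wells. The share called there was 5.8%, against 5.89% in the other wells. With these values left out, limma called 645 features at 22 h.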

How the data were processed

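Expression was measured on 32 two-channel cDNA arrays, 4 at each of 8 time points. Each array's deposited column held a log10 ratio for every feature, which the authors made with Rosetta Resolver, per the labels. The sources used here do not give background correction, normalization, dyes or numerator, and the scale was read from the values. On 22 of the arrays 40 or more values fell on ratios of small whole numbers plus 1 offset per array.

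Ratios were multiplied by 3.32193 to give log2, values at 2 or -2 were set to missing, and replicates 2 and 4 were turned. limma 3.58.1 (R 4.3.3, lmFit and eBayes) was fitted to all 32 arrays, with a coefficient for each time point plus a term for the dye orientation. Features needed 1 or more values per orientation at each time point compared. Tests were two-sided, adjusted by Benjamini-Hochberg over all features tested, and called under 0.05. limma gave all adjusted p-values. The number of arrays limits the precision, and no signal over background was used. Features were named, as no gene names could be given, by the 2 largest ratios of either sign among called features with 4 values of 1 sign. The gene lists and marker lists planned could not be used. Simulated data were used to test the fit. The time point, tests and groups were chosen with earlier results of these data known, and the whole-number ratios were found in the data.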

Additional observations from a re-analysis of the deposited data

Results flagged for a closer look

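By Dixon's test, 2 of 61 sets of 4 arrays held a value far from its neighbours. Chance passes this test in about 1 of 20 sets, which is 3.05 of 61. Array 1 of 22 h had 12 features without a value, against 97 to 111 on the other 3, and it also had 159 upper-limit values and 19 whole-number ratios. Over the series, 10 arrays had under 40 whole-number ratios (15 to 20 each), and all 10 had over 100 values at the upper limit. Of the other 22 arrays, with 49 to 247 such ratios, 0 had over 100. Feature GP009E11 had 5.87 on array 1 at 4 h.

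The tests of differences between time points called 279 features for 22 h minus 0 h, 21 for 22 h minus 12 h and 179 for 22 h minus the mean of 2 to 12 h. Among the named features, 22 h minus 0 h was called for GP005B2 (3.84), GP009E11 (3.73), GP007A9 (-1.23) and GP107D11 (-1.21), and 22 h minus the mean of 2 to 12 h for GP005B2 (2.08).

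Limit values were left out of the tests. At 22 h, 35 features were at a limit in both orientations, and in 22 of them every limit value lay on the same side once turned, 21 on the positive side. At 0 h this held for 0 of 15 features. It was not particular to 22 h: at 2, 4, 6, 8, 10 and 12 h it held for 17 of 58, 38 of 62, 29 of 41, 36 of 83, 3 of 185 and 4 of 81 features. Of these, 0, 38, 29, 1, 3 and 3 lay on the positive side, so the side differed between time points. The side moved with the arrays that held over 100 upper-limit values. These were array 2 at 2 and 8 h (333 and 476 values), arrays 1 and 3 at 4 h (122 and 321), array 1 at 6 and 22 h (185 and 159), arrays 1 and 2 at 10 h (261 and 203) and arrays 1 and 2 at 12 h (112 and 151). No treatment effect is read from them.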

How the results depend on the processing

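The alternatives were planned except for leaving out whole-number ratios, which was added after the data were seen. Counts are given for 22 h against 0, 22 h minus 0 h, 22 h minus 12 h and 22 h minus the mean of 2 to 12 h, in this order, against 631, 279, 21 and 179. With arrays 1 and 2, and 3 and 4, averaged as dye swaps they were 410, 118, 3 and 88 (377 of the 410 were among the 631), and the negative side at 22 h held 73. At a threshold of 0.01 they were 394, 165, 10 and 88. With only the arrays compared in the fit, which leaves fewer arrays for the spread, the first 3 were 102 (99 positive and 3 negative), 113 and 0 (354 at an unadjusted p under 0.05, limma). The spread also differed between time points. Its median SD over the 4 arrays was largest at 22 h (0.293), against 0.214 at 12 h to 0.290 at 6 h for the others. The main fit shares a spread per feature over the series, and its part in these lower counts was not tested. Scaling gave 0 and 86 for the last 2, and 421 at 22 h (343 positive and 78 negative). Leaving out the 11 arrays with over 100 limit values, among them array 1 of 22 h, gave 0 (464 unadjusted, limma) and 85 for the last 2, and 428 at 22 h (364 positive and 64 negative). Leaving out 1 array of 22 h gave 448 to 677, 179 to 328, 5 to 31 and 98 to 192. Leaving out 1 of 0 h gave 220 to 246, and 1 of 12 h gave 8 to 24. With the replicate block the counts were 929 (594 positive and 335 negative), 439, 49 and 297. The alternatives not given here kept each total within 1.5 times. Between time points, after time and dye terms, arrays of the same number correlated at -0.24 to 0.51 (mean 0.11) and arrays of different numbers at -0.47 to 0.35 (mean -0.04), and 22 of 32 arrays, with all 4 of 22 h, correlated best with their own number, which is a hint from the data and not from the design. Both negative named features lost their call with the 22 h arrays alone. Turning the sign gives -3.82, -3.76, 1.20 and 1.19 for GP005B2, GP009E11, GP007A9 and GP107D11 by construction. Causes were not tested. Signal over background, which limits low features, was not used here.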
